A study of Homo sapiens with 3 samples.

Results

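The BEX (brain-expressed X-linked) and TCEAL (transcription elongation factor A-like) genes examined here were 10 of the 60504 genes in the table, namely BEX1, BEX2, BEX3, BEX4, BEX5, TCEAL1, TCEAL3, TCEAL4, TCEAL8 and TCEAL9. They were chosen by name, with the older names NGFRAP1 for BEX3 and WBP5 for TCEAL9, and all 10 were found by their Ensembl identifiers. RNA-Seq libraries came from DLD1 control cells (wild type, 1 library) and from BEX2-/- DLD1 cells (2 libraries, labelled KO1 and KO2). DLD1 is an established colorectal cancer cell line. BEX2 had been disrupted with CRISPR/Cas9, an RNA-guided nuclease, in the translation initiation region, and the paper states that clones were screened by sequencing. The labels do not say whether KO1 and KO2 are separate clones or samples of a single line.

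BEX proteins are small, largely disordered proteins encoded next to each other on the X chromosome and best known from brain. BEX3, also called NADE, binds the neurotrophin receptor p75NTR and takes part in the death signal it can give. TCEAL proteins resemble part of the elongation factor TFIIS, which helps stalled RNA polymerase II resume, and they share the chromosomal cluster with the BEX genes. When a member of such a family is lost, a question that follows is which relatives the cells express and whether any of them is raised.

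The coding starts of the BEX genes are shown because they set BEX1 and BEX4, which are close to BEX2 there, apart from BEX3 and BEX5. The edited bases themselves were not located here. The first 60 coding bases, from GENCODE release 29 transcripts, are given 5′ to 3′ with the start codon in capitals.
BEX2: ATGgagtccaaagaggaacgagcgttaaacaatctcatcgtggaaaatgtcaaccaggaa
BEX1: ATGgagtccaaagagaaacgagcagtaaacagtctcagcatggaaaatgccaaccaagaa
BEX4: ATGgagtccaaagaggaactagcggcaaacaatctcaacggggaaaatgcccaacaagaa
BEX3: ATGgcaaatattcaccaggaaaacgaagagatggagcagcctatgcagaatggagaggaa
BEX5: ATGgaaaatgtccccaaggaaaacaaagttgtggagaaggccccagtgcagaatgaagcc
BEX1 differed from BEX2 at 8 of these bases and BEX4 at 9, of which 3 lay in the first 30 bases in either case. BEX3 differed at 43 and BEX5 at 45. Over the whole coding sequence, BEX1 and BEX2 were 92.2% identical, BEX2 and BEX4 61.2%, and BEX3 and BEX5 72.8%. Among the TCEAL genes, TCEAL3 was 98.0% identical to TCEAL6.

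Close copies can lose reads to each other when reads are assigned to genes, so the uniqueness of each transcript was measured. Of all stretches of 50 bases in BEX2 transcripts, 97.6% occurred in no transcript of another gene, and of stretches of 100 bases all 1361 did so. For BEX1 the share at 50 bases was 96.8%, and for BEX4 it was 99.7%. No stretch of BEX3, TCEAL8 or TCEAL9 at this length was shared. TCEAL3 and TCEAL1 stood lowest among the 10, at 80.7% and 85.6%. Their gene models overlap by 987 bases on the same strand, and 238 of the 452 shared stretches of TCEAL3 were shared with TCEAL1. A further 417 bases of TCEAL3 overlap an antisense gene, TCEAL3-AS1, which had 4 reads or fewer in every library. The counting was not stated to use strand, so the values of TCEAL1 and TCEAL3 are uncertain to the extent that reads were split between them or, for TCEAL3, with its near copy TCEAL6.

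Levels are given in FPKM, the fragments of a gene scaled to its length and to the fragments in the library, so that genes can be compared with each other. The libraries held 47458850 reads (DLD1 control cells), 35593989 (KO1) and 47722374 (KO2), as recovered from the steps of the low FPKM values. Reads of single genes, recovered the same way, gave 95% exact binomial intervals for ratios, and a count of 0 was taken to allow 3 reads. These intervals and limits cover counting error only. Of 10 markers of colon epithelium, none was at 0, and their summed level was 1638 FPKM in the control, 1796 in KO1 and 1885 in KO2. Most of the sum came from KRT8, KRT18 and KRT19, which with CDH1 were above the control in KO2. EPCAM, VIL1, CDX1, CDX2, CDH17 and LGALS4 were below it there. CDX1 was at 0.455, 0.815 and 0.0834 FPKM in control, KO1 and KO2, and CDH17 at 34.9, 78.7 and 29.5 FPKM. KRT8 and EPCAM, which define epithelium, were lowest at 219.6 FPKM (EPCAM in KO2), whereas the enterocyte genes LGALS4 (2.28, 60.2 and 0.119 FPKM in control, KO1 and KO2) and VIL1 (3.61, 13.2 and 0.221 FPKM) set the knockout libraries apart. The part of this difference between the knockout libraries in the values below was not tested. Summed levels ranged from 0.882 to 1.03 FPKM for 7 mesenchymal markers and from 0.338 to 0.487 for 6 neural markers (CHGA, STMN2 and GAP43 at 0). Of the leukocyte markers, PTPRC and HLA-DRA were at 0 in all 3 libraries, CD68 had 1, 4 and 2 reads and CD3E had 4 reads in KO2 and 0 elsewhere.

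At the level of mRNA the family split into 6 genes that were expressed and 4 that were at or near 0, called silent below. BEX3 and the 5 TCEAL genes were each above 5 FPKM in all 3 libraries, and the highest value of the remaining BEX genes was 0.132 FPKM. A level of at least 1 FPKM in every library was reached by 17.8% of all genes and 48.7% of protein-coding genes, and 20.2% of protein-coding genes were at 0 throughout.

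BEX2 itself (ENSG00000133134, chromosome X, 103309346 to 103311046 on the minus strand of GRCh38) was listed at 0 FPKM in the control and in both knockout libraries. The limit of 3 reads corresponds to 0.0538 FPKM in the control, 0.0717 in KO1 and 0.0535 in KO2. The mRNA of the targeted gene gave no check of the genotype labels. With the control itself at 0, a knockout effect on its own level was not detectable at this depth. The paper itself reports a frameshift deletion found by sequencing and a check of the knockout at the protein level by western blotting. The study chose DLD1 for BEX2 protein that was relatively high among colorectal cancer lines. These libraries do not measure protein, so silent refers to mRNA in this table alone. BEX1 (ENSG00000133169), its nearest relative, was also listed at 0 in all 3 libraries, with a limit of 0.0732 FPKM in the control, 0.0976 in KO1 and 0.0728 in KO2.

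BEX4 (ENSG00000102409), which associates with tubulin, had 1 read in KO2 and 0 reads in the other libraries. BEX5 (ENSG00000184515) had 2 reads in the control, 5 in KO1 and 0 in KO2, or 0.0396, 0.132 and 0 FPKM. The ratio of KO1 to the control for BEX5 was 3.33, with a counting interval from 0.546 to 35.0. Neither gene was above the limit of 3 reads in both knockout libraries. In BEX2-/- DLD1 cells the highest level of BEX1, BEX4 or BEX5 was therefore the 0.132 FPKM of BEX5 in KO1.

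BEX3 (ENSG00000166681, chromosome X, 103376340 to 103378077 on the plus strand) was the most abundant member, with 104 FPKM in the control, 90.3 in KO1 and 83.4 in KO2. It made up 99.96% of the summed BEX level in the control, 99.85% in KO1 and 99.98% in KO2, and ranked 299 by level among 11675 genes with a mean of 1 FPKM or more. Both knockout libraries were below the control. The reads were 5356, 3472 and 4300.

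TCEAL4 (ENSG00000133142), the most abundant TCEAL gene, had 41.1 FPKM in the control, 41.0 in KO1 and 44.7 in KO2. KO2 was the highest, while the control and KO1 lay next to each other. TCEAL9 (ENSG00000185222), which is known as a protein that binds WW domains, was at 29.9, 29.3 and 29.1 FPKM in the same order. TCEAL8 (ENSG00000180964) was at 21.2, 20.5 and 21.1 FPKM.

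The lowest expressed members were TCEAL1 and TCEAL3. TCEAL1 (ENSG00000172465), a nuclear phosphoprotein that modulates transcription from certain promoters, had 10.4 FPKM in the control, 9.75 in KO1 and 9.68 in KO2. TCEAL3 (ENSG00000196507) was at 5.10, 5.41 and 5.35 FPKM. The order BEX3, TCEAL4, TCEAL9, TCEAL8, TCEAL1, TCEAL3 was the same in every library, and the ranges of neighbours in this order did not overlap. The smallest steps were from TCEAL4 to TCEAL9, with a ratio between 1.37 and 1.53, and from TCEAL9 to TCEAL8, between 1.38 and 1.43.

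**Figure D1:**
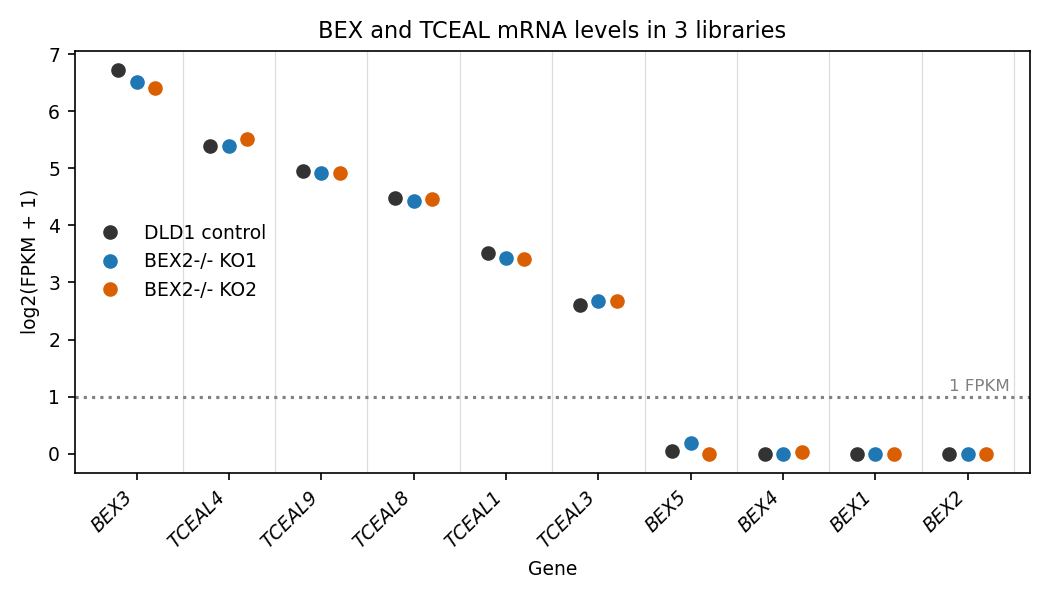
Level of each gene in each library, as log2(FPKM + 1), with genes ordered by their level in DLD1 control cells; each point is 1 library and the dotted line marks 1 FPKM. BEX3 and the 5 TCEAL genes stood above 5 FPKM in all 3 libraries, and BEX1, BEX2, BEX4 and BEX5 lay at or near 0.

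The expressed and the silent members lay next to each other. The 10 genes and the other 4 TCEAL genes lie within 1505 kb of chromosome X, from 102125688 to 103630953, among 27 protein-coding genes of which 26 were in the table. Only 7 of the 26 reached 1 FPKM in every library, and 6 of these were BEX3 and the TCEAL genes named above. The remaining one was ARMCX5, at 2.03 FPKM in DLD1 control cells. Of the 6 expressed members, TCEAL8 started 55.8 kb from the BEX2 start on the side of BEX1 and BEX4, and the others started between 45.4 kb (TCEAL9) and 318 kb (TCEAL1) on the opposite side. BEX1, BEX4 and BEX5 lay on the side of TCEAL8, at 247, 96.0 and 1155 kb. Of the family, the neighbours of TCEAL8 were BEX4 on one side and TCEAL5 on the other, both at or near 0.

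**Figure D2:**
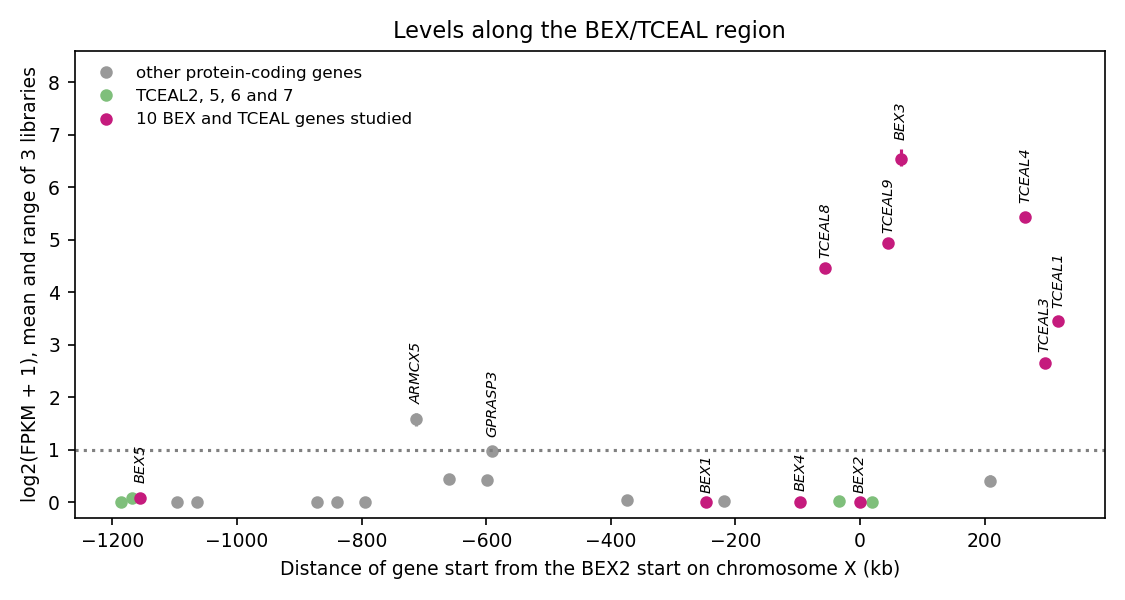
Protein-coding genes of the BEX and TCEAL region by the distance of their start from the BEX2 start in kb, against log2(FPKM + 1); points are means and vertical lines ranges over the 3 libraries. Members lie in 2 levels, at or near 0 and above 5 FPKM, and the expressed ones start between 55.8 kb on one side of BEX2 and 318 kb on the other.

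The 4 TCEAL genes outside the list were also at or near 0. TCEAL2 and TCEAL7 were at 0 in all 3 libraries, TCEAL5 had 2 reads in KO2 and none elsewhere, and TCEAL6 had 4, 0 and 6 reads. TCEAL6 is the near copy of TCEAL3, and 77.2% of its stretches of 50 bases were unique.

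Expressed and silent members shared a sequence just before their starts. The promoters, taken from RefSeq on GRCh38.p14 as 250 bases before to 50 bases after each annotated start, were available for all 10 genes. A run of 10 bases, TCACGTGACC, was read off these promoters after they had been seen, and was searched on both strands. It was 1 of 2 runs of this length that 5 members held, the other being CTCACGTGAC, which is the same site moved by 1 base and occurred in 0.344% of genes. It contains CACGTG, the E-box bound by many basic helix-loop-helix factors. Where a gene had several annotated starts, the window with the fewest mismatches to the run was used, and of equals the first listed. The best site of each gene is shown in 40 bases of the strand of the gene, with the 10 bases that best match the run in capitals.
BEX3: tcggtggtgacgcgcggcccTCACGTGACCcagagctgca
TCEAL4: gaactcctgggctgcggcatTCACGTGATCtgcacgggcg
TCEAL9: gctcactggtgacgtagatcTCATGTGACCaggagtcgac
TCEAL8: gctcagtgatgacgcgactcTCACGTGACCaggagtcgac
TCEAL1: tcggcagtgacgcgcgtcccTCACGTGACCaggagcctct
TCEAL3: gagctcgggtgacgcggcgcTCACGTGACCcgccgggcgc
BEX1: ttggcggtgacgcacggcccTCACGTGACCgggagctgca
BEX2: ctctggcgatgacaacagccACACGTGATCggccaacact
BEX4: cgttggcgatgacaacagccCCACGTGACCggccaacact
BEX5: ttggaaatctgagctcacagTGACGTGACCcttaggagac
The first 6 are the expressed members in order of level and the last 4 the silent ones.

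The run was present without a mismatch in 5 of 10 members, against 0.564% of 27305 genes with a promoter in the table. With at most 1 mismatch it was present in 9 of 10, against 3.50% of genes. All 6 expressed members and 3 of the 4 silent members had such a site. BEX2 was the exception, with 2 mismatches, and 20% of genes had a site with at most 2 mismatches. The core CACGTGA was present in 8 of 10 members and in 4.49% of genes, and was missing in TCEAL9 and BEX5, where 1 base differed from the run. All 3 of the other TCEAL genes with a promoter in the table (TCEAL2, TCEAL5 and TCEAL6), all at or near 0 in mRNA, had a site with at most 1 mismatch. The site began between 4 bases (BEX4) and 81 bases (TCEAL3) before the start. Since the run was derived from these promoters, the counts describe them and test nothing.

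The most similar promoters among the 10 genes were those of BEX2 and BEX4 and of BEX1 and BEX3. BEX1, at 0 in all libraries, and BEX3, at 83.4 FPKM or more, had promoters that were 76.9% identical over 303 aligned columns, and both held the run without a mismatch 48 bases before the start. BEX2 and BEX4, both silent, were 84.0% identical. The 4 promoters are shown for this comparison, from chrX:103064122-103064421 on the minus strand (BEX1), chrX:103376288-103376587 on the plus strand (BEX3), chrX:103310941-103311240 on the minus strand (BEX2) and chrX:103214842-103215141 on the plus strand (BEX4), with the best site in capitals.
BEX1: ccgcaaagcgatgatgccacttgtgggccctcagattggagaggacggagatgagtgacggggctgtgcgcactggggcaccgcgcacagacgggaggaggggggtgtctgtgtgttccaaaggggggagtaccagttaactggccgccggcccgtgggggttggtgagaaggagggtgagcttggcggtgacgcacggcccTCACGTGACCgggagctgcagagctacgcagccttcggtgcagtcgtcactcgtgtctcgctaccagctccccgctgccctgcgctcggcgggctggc
BEX3: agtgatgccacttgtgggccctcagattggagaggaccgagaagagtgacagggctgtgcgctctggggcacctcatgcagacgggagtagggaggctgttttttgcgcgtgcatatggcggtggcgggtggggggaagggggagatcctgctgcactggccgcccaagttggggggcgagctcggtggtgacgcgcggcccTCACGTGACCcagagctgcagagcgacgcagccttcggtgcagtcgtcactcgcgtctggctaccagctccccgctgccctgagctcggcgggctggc
BEX2: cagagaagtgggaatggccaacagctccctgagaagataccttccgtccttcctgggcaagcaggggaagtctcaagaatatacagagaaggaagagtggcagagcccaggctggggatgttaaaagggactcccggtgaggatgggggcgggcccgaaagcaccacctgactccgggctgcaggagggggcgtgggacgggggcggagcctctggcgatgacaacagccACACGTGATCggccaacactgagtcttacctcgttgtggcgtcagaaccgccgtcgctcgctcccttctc
BEX4: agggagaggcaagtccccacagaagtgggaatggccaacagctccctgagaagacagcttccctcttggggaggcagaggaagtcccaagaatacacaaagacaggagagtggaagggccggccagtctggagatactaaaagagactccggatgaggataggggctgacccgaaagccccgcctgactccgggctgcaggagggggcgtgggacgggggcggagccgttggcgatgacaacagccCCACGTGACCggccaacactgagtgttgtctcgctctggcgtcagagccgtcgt
The number of CG dinucleotides, the sites of DNA methylation, was 25 in the BEX1 promoter, 23 in BEX3, 17 in BEX2 and 16 in BEX4. In the windows used it ranged from 10 (TCEAL9) to 30 (TCEAL3) over the expressed members and from 14 to 25 over the silent ones, so the ranges overlapped. The windows left out, at other annotated starts, had 7 and 32 (BEX3), 5 (TCEAL1), 17 (BEX4) and 13 (BEX5). The median over all promoters was 14, with quartiles of 4 and 28. Methylation was not measured in these libraries.

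To see whether any relative was raised in BEX2-/- DLD1 cells, each knockout library was compared with the control by the log2 ratio of FPKM + 1, among the 11675 genes that reached 1 FPKM when the control value was averaged with the mean of both knockout libraries. Of the 10 members, 6 passed this filter, and the ratios below are for these. None of the 6 changed at least 2-fold in KO1, where 2.02% of all genes tested did, or in KO2, where 2.06% did. None of the 6 was 2-fold higher in either knockout library, beside 1.06% of all genes in KO1 and 1.33% in KO2. In the same direction in both knockout libraries, the count was 0 of 6 members and 0.325% of all genes. At 1.5-fold it was again 0, against 1.17%. At these shares over all genes, counts of 0 of 6 do not set the members apart. The highest ratio of FPKM to the control among the 6 was 1.09, that of TCEAL4 in KO2.

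BEX3 was lower in both knockout libraries, with log2 ratios of -0.21 in KO1 and -0.32 in KO2. In FPKM these were 0.864 (95% counting interval 0.828 to 0.902) and 0.798 (0.767 to 0.831) times the control. The knockout libraries also differed from each other, with a ratio of KO2 to KO1 of 0.924 (0.883 to 0.966). The mean of the knockout libraries was 86.9 ± 4.87 FPKM (SD, n = 2), beside 104 FPKM in the control.

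TCEAL4 had a ratio to the control of 0.999 (0.957 to 1.04) in KO1 and 1.09 (1.05 to 1.13) in KO2. The ratio of TCEAL8 was 0.966 (0.886 to 1.05) in KO1 and 0.995 (0.919 to 1.08) in KO2. The control lay between the knockout libraries for TCEAL4, whose mean over the knockout libraries was 42.9 ± 2.55 FPKM (SD, n = 2), and just above both for TCEAL8, at 20.8 ± 0.433 FPKM (SD, n = 2).

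TCEAL1 had a ratio of 0.936 (0.838 to 1.04) in KO1 and 0.929 (0.839 to 1.03) in KO2, and TCEAL3 one of 1.06 (0.934 to 1.20) and 1.05 (0.932 to 1.18). In neither gene was a difference from the control detectable in either knockout library at this depth. TCEAL9 had ratios of 0.982 and 0.975 without an interval, since its values did not resolve into whole reads.

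**Figure D3:**
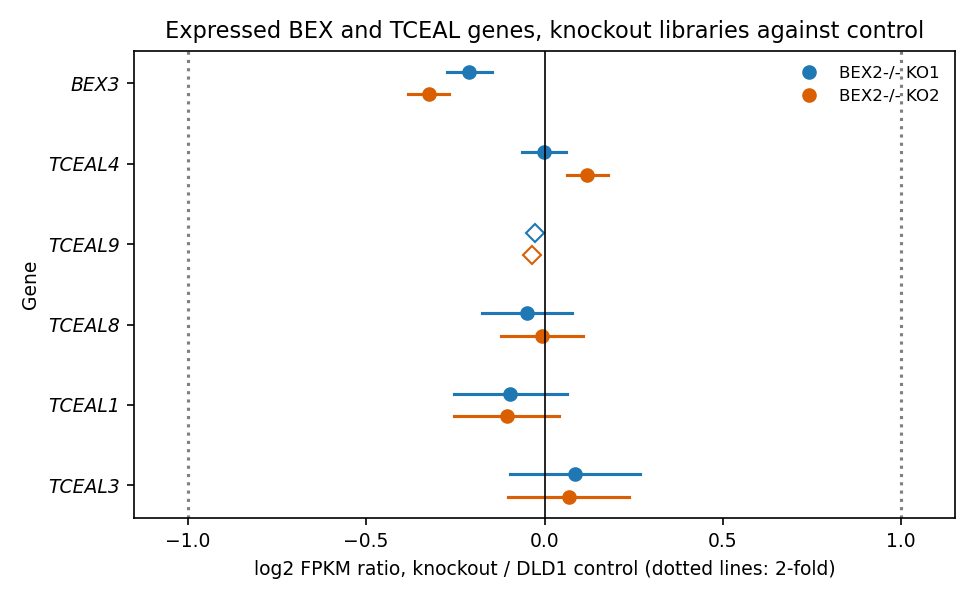
Log2 ratio of FPKM in each BEX2-/- library to DLD1 control cells for the 6 expressed genes; horizontal lines are 95% counting intervals, open diamonds have none, and dotted lines mark 2-fold. The BEX3 intervals lie below 0 in both knockout libraries, from -0.27 to -0.15 and from -0.38 to -0.27, and no point comes near a 2-fold change.

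The knockout libraries were also compared with the control in a single limma fit over the 11675 genes. It takes the spread from the difference between the knockout libraries, drawn for each gene toward the spread of genes at like level. It also assumes that the lone control varies as the knockout libraries do. No member passed an adjusted p of 0.05, and none of the 11675 genes did (0.0%). At an unadjusted p under 0.05 there were 0 members and 139 genes (1.19%). For BEX3 the difference of the knockout libraries from the control was -0.26 ± 0.17 (log2, SE), with an adjusted p of 1.00 by limma with Benjamini-Hochberg adjustment and an unadjusted p of 0.208. In this fit the 95% interval for BEX3 ran from 0.587-fold to 1.18-fold, as folds of FPKM + 1. The upper bounds for the other 5 members lay between 1.34-fold (TCEAL1) and 1.51-fold (TCEAL3) on that scale. Increases up to these bounds were not excluded, and the bounds are not limits of detection. The intervals and p-values measure only the spread between the knockout libraries, taken largely over all genes. That spread includes large differences, such as LGALS4 at 60.2 FPKM in KO1 and 0.119 in KO2. What part of it was technical was not tested. For TCEAL9 the SE was 0.17, while the SD of its own log2 ratios was 0.0063.

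By direction alone, 4 of the 6 members were lower than the control in both knockout libraries, where 27.7% of all genes were. A further 1 (TCEAL3) was higher in both, where 3779 of the 11675 genes tested were. These 5 lay on the same side of the control in both knockout libraries, as 60.1% of all genes did. When libraries were scaled to the same FPKM sum the members turned to 2 lower and 4 higher. TCEAL8 and TCEAL9 changed sign and TCEAL4 became higher in both knockout libraries. The median log2 ratio of all genes rose as well under this scaling, to 0.070, and the shares of all genes by direction were not counted for it. With scaling by the median ratio over genes, 3 members were lower in both and 1 was higher, as TCEAL8 then lay on either side of the control. BEX3 stayed lower in both knockout libraries under each scaling tried. The 6 had a median log2 ratio of -0.029 for the mean of the knockout libraries, beside 0.017 for all genes tested, and their range was from -0.26 to 0.06. BEX3 stood at percentile 10.1 of all genes tested by its mean ratio, and the 5 TCEAL genes between percentiles 30.7 (TCEAL1) and 58.5 (TCEAL3).

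**Figure D4:**
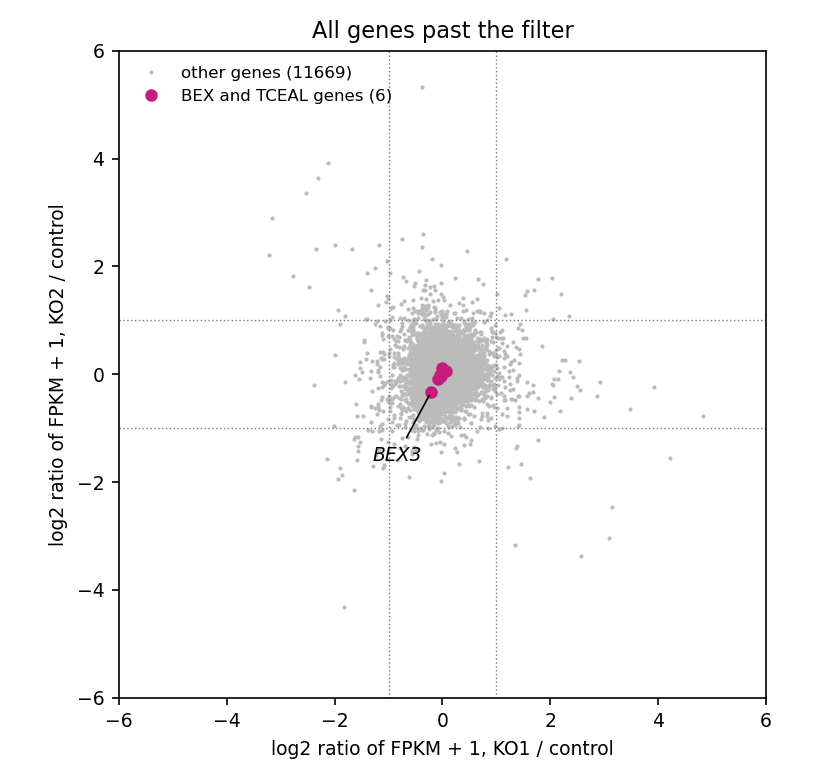
Log2 ratios of FPKM + 1 to DLD1 control cells in KO1 (horizontal) and KO2 (vertical) for the 11675 genes past the filter; both axes share the control library and dotted lines mark 2-fold. The 6 BEX and TCEAL genes lie near the centre, with BEX3 lowest at -0.21 and -0.32.

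The TCEAL genes varied little over the 3 libraries. The coefficient of variation was 1.30% for TCEAL9, 1.84% for TCEAL8, 3.10% for TCEAL3, 4.09% for TCEAL1 and 4.91% for TCEAL4, and the median over all genes tested was 13.4%. Of all genes tested, 0.762% varied less than TCEAL9 and 10.1% less than TCEAL4. For BEX3 the coefficient was 11.6%, and 42.2% of genes varied less. Over genes with a mean of at least 5 FPKM the median was 11.2%. Each coefficient rests on 3 values, and the part of counting error in it was not separated. For TCEAL1, TCEAL3 and TCEAL8 the counting intervals of both ratios to the control included equality. Their spread therefore lay within counting error, and steadiness beyond it was not shown. TCEAL3 had 444 to 588 reads and TCEAL8 had 893 to 1233.

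The genes whose ratios in the 2 knockout libraries came nearest to those of BEX3 were LHPP, ARL2 and DHRS4L2, at distances of 0.0051, 0.0075 and 0.013 on the log2 scale over the 2 knockout libraries. LHPP had 2.15 FPKM in the control, 1.72 in KO1 and 1.52 in KO2. The distances are on ratios of FPKM + 1, which understate changes of low genes such as LHPP. In FPKM itself LHPP fell further below the control than BEX3 did in both knockout libraries. ARL2, a small GTPase that acts in tubulin folding, was at 14.2, 12.2 and 11.1 FPKM. Both ratios share the control library.

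Genes around the family, of the elongation machinery and of the p75NTR pathway were compared in the same way. Of 22 further genes of the Xq22 region, 5 passed the filter, 0 changed 2-fold in either knockout library and 0 passed an adjusted p of 0.05 in limma, beside 2.02% and 2.06% of all genes changed 2-fold in KO1 and KO2 and 0 of 11675 in limma. At these shares over all genes, counts of 0 in lists of this size set none of the lists apart. The median log2 ratio of the 5 Xq22 genes for the mean of the knockout libraries was 0.158, beside 0.017 for all genes tested. The largest mean ratios were those of FAM199X (3.85, 6.06 and 5.15 FPKM in control, KO1 and KO2), ARMCX6 (4.46, 4.90 and 5.72 FPKM) and ARMCX3 (5.0, 4.67 and 6.91 FPKM), the latter of which encodes a mitochondrial outer membrane protein. MORF4L2, a chromatin protein of the NuA4 complex and the most abundant of these genes, was named after its values were seen, at 109, 117 and 119 FPKM.

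Of 23 elongation genes, 20 passed the filter, and again 0 changed 2-fold in either knockout library (2.02% and 2.06% of all genes) or passed an adjusted p of 0.05 (0 of 11675). Their median for the mean of the knockout libraries was 0.058 (log2). SSRP1, a subunit of the histone chaperone FACT, was at 65.8, 55.1 and 49.3 FPKM. CTR9, a subunit of the PAF1 complex, was at 8.36, 10.3 and 10.9 FPKM, and ELL, an elongation factor, at 2.24, 2.59 and 3.21 FPKM.

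Of 21 genes of p75NTR signaling and reported partners of BEX proteins, 11 passed the filter, and 0 changed 2-fold in either knockout library (2.02% and 2.06% of all genes) or passed an adjusted p of 0.05 (0 of 11675). The median log2 ratio was 0.072. RHOA, a GTPase regulated by p75NTR, was at 278, 337 and 321 FPKM, RIPK2, an adaptor kinase, at 5.75, 6.66 and 6.81 FPKM, and LDB1, which bridges LIM domain factors, at 20.1, 20.1 and 26.4 FPKM. NGFR, the p75NTR gene to whose product BEX3 binds, was at 0, 0 and 0 FPKM and was named after its values were seen.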

How the data were processed

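Total RNA of DLD1 control cells and of 2 BEX2-/- samples was sequenced by the authors, and the deposited table holds 1 FPKM value per gene and library. The submitters' processing notes name Trim Galore 0.3.7, STAR 2.5, Cufflinks 2.2.1, DESeq 1.22.1 and the build hg19, and the annotation was not given in the sources used here. Of 60504 identifiers, 56996 were found in GENCODE release 29 (GRCh38), from which symbols and coordinates were taken, and 3508 were not. No coordinate came from the table.

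Reads per gene were recovered from FPKM, exon length and the step between low values. Among values under 100 reads, 98.7% to 98.8% were within 0.02 of a whole read for genes with a single transcript and 87.8% to 88.3% for other genes. Genes were kept when the average of the control and of the mean knockout value was 1 FPKM or more. Ratios used log2(FPKM + 1), which understates changes of low genes. The knockout libraries were compared with the control by limma 3.58.1 (R 4.3.3, with an intensity trend and Benjamini-Hochberg adjustment). The procedure was tried on simulated data whose changes were larger than any member's ratio here. It was not tested at changes of the size seen in the members. Other steps used Python 3.11.15, numpy 2.4.6, pandas 2.3.3, scipy 1.17.1 and biopython 1.88. Promoters came from RefSeq. Alternatives were the pseudocount, the scaling, the filter, the threshold and leaving out each knockout library. The text names the 10 members, the 4 other TCEAL genes, from each gene list the 3 genes with the largest mean ratio in either direction, and the 3 genes nearest to BEX3. Members and lists were chosen with earlier results of these data known. The summed level of the leukocyte markers is not reported here.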

Additional observations from a re-analysis of the deposited data

How the results depend on the processing

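The counts of members changed 2-fold in KO1, in KO2 and in both were 0 under each alternative pseudocount, scaling and filter tried. With 2.02% and 2.06% of all genes changed 2-fold in KO1 and KO2, these counts of 0 do not set the members apart. At 0.5 FPKM, at 5 FPKM and after scaling to the same FPKM sum, 6 members were expressed. In limma, 0 genes of any kind passed an adjusted p of 0.05 in any setting (the lowest was 0.535, without a filter), so its count of 0 members is no sign of stability. The median log2 ratio of the members, -0.029, became 0.035 after scaling to the same FPKM sum, where the median of all genes was 0.070, and -0.0077 over 8 members without a filter on low values. Leaving out each knockout library gave medians from -0.036 to -0.021. TCEAL8 and TCEAL9 changed sign after the same scaling, to 0.04 and 0.03, and BEX3 stayed at -0.15 in KO1 and -0.25 in KO2. No paired analysis was possible because the control is a single library, so the groups share fewer than 2 replicate numbers. With a lone control, the difference between genotypes and that between single libraries cannot be told apart.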
